A study of Mus musculus with 4 samples.

Results

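Oxidative phosphorylation is carried out by 5 protein complexes of the inner mitochondrial membrane, and the genes described here are nuclear genes of their subunits, picked by symbol. They were taken as every probe set (a group of probes for 1 transcript) whose array annotation named a single gene with a symbol starting in Nduf plus a subunit letter and number, Uqcr, Cox4 to Cox8 or Atp5, or equal to Sdha, Sdhb, Sdhc or Sdhd. This gave 164 probe sets for 81 genes, of 18193 genes named by a single-gene probe set in the series. The rule leaves out some nuclear subunit genes. Ndufa11 and Ndufs6 had only probe sets naming several genes, and Cyc1, a complex III gene with another kind of symbol, is counted with the electron carriers. The series held 4 Affymetrix arrays of total RNA from mature liver of C57BL/6J mice, an inbred laboratory strain. In 2 of them the liver was taken 48 h after partial hepatectomy, the surgical removal of part of the liver, and in 2 of them 48 h after a sham operation. The design text calls the arrays of a group biological duplicates; the labels leave unsaid how much liver was removed, how old the mice were and whether each RNA came from 1 animal or a pool. The spread behind each p-value is therefore that of these arrays, whatever it holds.

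Complex I (NADH dehydrogenase, Nduf genes) and complex II (succinate dehydrogenase, Sdh genes) pass electrons to ubiquinone. Complex III (ubiquinol-cytochrome c reductase, Uqcr genes) passes them on to cytochrome c, and complex IV (cytochrome c oxidase, Cox genes) to oxygen. Complexes I, III and IV pump protons, and complex V (ATP synthase, Atp5 genes) makes ATP from the proton gradient. Liver cells hold many mitochondria, which serve gluconeogenesis, urea synthesis and fatty acid oxidation, and liver regrowth after hepatectomy is a state of high energy demand. Symbols set the complex here, although Ndufa4 is now regarded as a subunit of complex IV and Cox7a2l as a factor that joins complexes III and IV.

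Of the 81 genes, 77 had a probe set bright enough to be tested: 34 of 35 for complex I, 4 of 4 for complex II, 8 of 8 for complex III, 14 of 17 for complex IV and 17 of 17 for complex V. The 4 others were Ndufb4, Cox4i2, Cox7b2 and Cox8c. Each gene was represented by its tested probe set with the highest mean. Values are the authors' signals on a linear scale, and fold changes are differences of log2(signal + 8.57), hepatectomy over sham, fitted over 27022 probe sets of all genes. The offset understates changes of dim genes.

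Every array had been scaled to a trimmed mean signal of 500, and the median signal was between 46.4 and 57.5. The 3' to 5' signal ratio, a measure of RNA integrity, was 1.45 to 1.73 for Gapdh and 2.02 to 2.75 for beta-actin, with overlapping groups. The hepatocyte markers (7 of 8 had a probe set) summed to a signal between 95621 and 111856 on all arrays, and hepatocyte albumin (Alb) was between 14968 and 17980. Hepatectomy replicate 1 stood apart: its 8 adrenal markers summed to 19889, against 227 to 246 on the 3 other arrays. Its white fat markers (4 of 6 had a probe set) summed to 2287, against 67 to 277, and its 4 brown fat markers to 2823, against 1700 to 2358. The red cell markers (2 of 3) summed to 2762 and 2151 in sham against 958 and 1635 in hepatectomy liver. Nearly all of that was Alas2, as Hba-a1 read at most 6.09. The 4 bile duct markers summed to 457 and 526 against 1249 and 737. The 4 macrophage markers summed to 8146 to 9175 with overlapping groups, but they moved in opposite directions. Clec4f read 3349 and 3087 in sham against 1671 and 2757 in hepatectomy liver, and Adgre1 841 and 1093 against 772 and 678. Cd68 read 753 and 779 against 1025 and 914, and Cd5l 3283 and 3649 against 4679 and 4826. Since hepatectomy replicate 1 stood apart, results are also given without it where it matters.

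No oxidative phosphorylation gene passed the test. By limma with Benjamini-Hochberg adjustment over all probe sets, 0 of 77 were called higher and 0 of 77 lower at an adjusted p of 0.05, while 3.57% of all 12560 genes tested were called higher and 1.09% lower. The smallest adjusted p was 0.133, for Cox7c. At an unadjusted p under 0.05 there were 4 subunit genes (5.19%), all lower, against 19.9% of all genes in either direction. Most values leaned the same way by a small amount: 69 of 77 were negative, with a median log2 fold change of -0.12 (a signal 8.0% lower) and a median standard error of 0.123. Over all genes tested the median was 0.025, and 47.1% were negative. The 95% interval of the fold change lay within 1.5-fold either way for 65 of the 77, against 26.5% of all genes. Among genes with a mean signal of 4000 or more it did so for 62 of 66 subunit genes and 963 of 1299 others. For the 65 subunit genes, a larger change than 1.5-fold lies outside the interval.

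**Figure D1:**
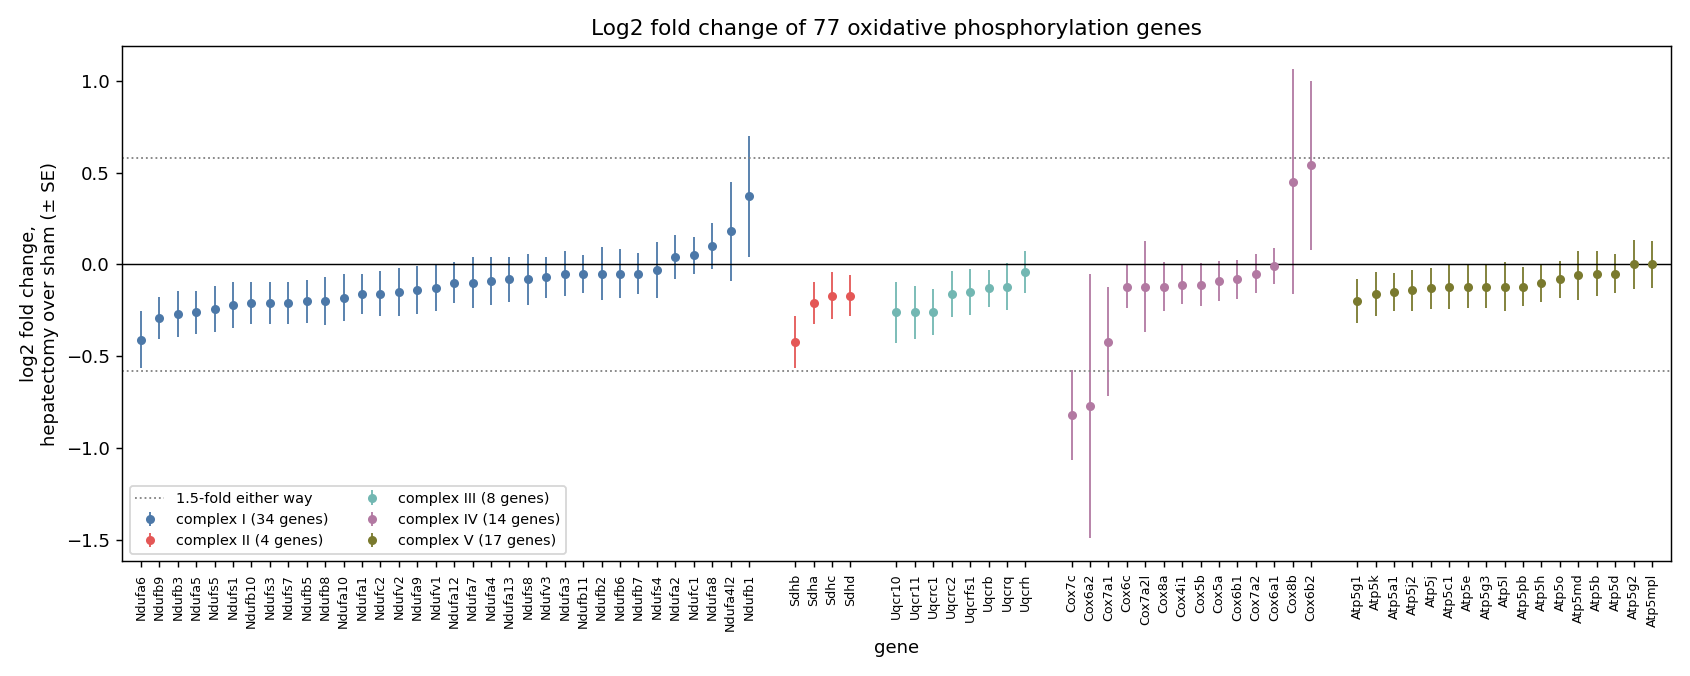
Log2 fold change of each of the 77 tested genes (points) with its standard error (bars), hepatectomy over sham, ordered within each complex; dotted lines mark 1.5-fold either way. Most points sit a little under 0, complex II holds no point above 0, and the wide bars of complex IV belong to dim genes such as Cox6a2 and Cox8b.

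Bright genes as a whole leaned the same way. Of 1299 other genes with a mean signal of 4000 or more, a limit chosen after the data were seen, 59.7% were negative and the median was -0.046. Of the 66 subunit genes above that limit, 95.5% were negative and the median was -0.122. The spread was narrower among the subunits: the middle 80% lay between -0.264 and -0.002 for the 77 genes, between -0.347 and 0.268 for the other bright genes and between -0.446 and 0.74 for all genes.

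**Figure D2:**
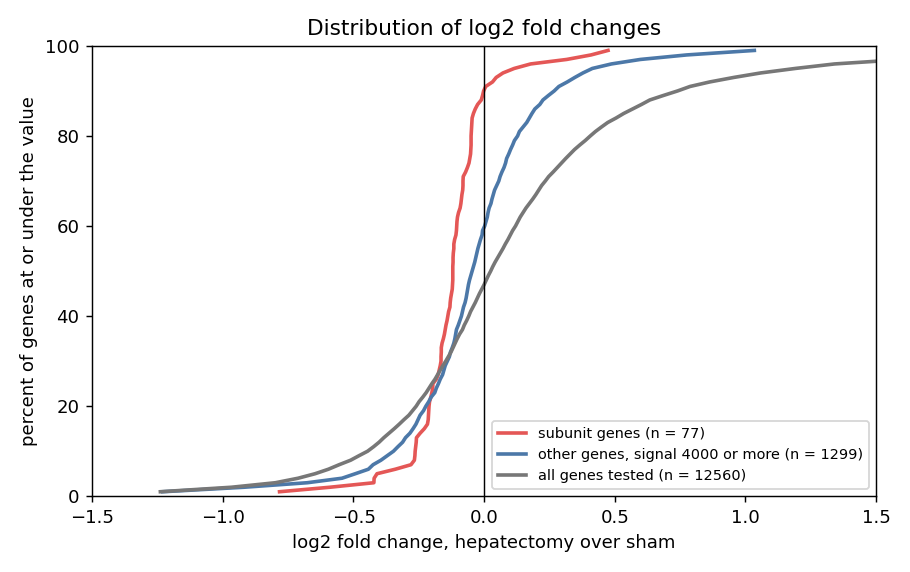
Percent of genes (y axis) at or under each log2 fold change (x axis), hepatectomy over sham, for the 77 subunit genes, 1299 other genes with a mean signal of 4000 or more and all 12560 genes tested. The curve of the subunits is the steepest of the 3 and crosses 50% at -0.12, against -0.046 and 0.025.

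The lean was not larger than the distance between the sham arrays. Sham replicate 1 read above sham replicate 2 in 66 of 77 subunit genes, with a median difference of 0.164 on the log2 scale, and it was the highest of the 4 arrays in 59. Hepatectomy replicate 1 read under replicate 2 in all but 20, by a median of 0.076 (hepatectomy 1 minus 2, -0.076), and was the lowest array in 46. Against sham replicate 1 the median difference was -0.238 for hepatectomy replicate 1 and -0.17 for replicate 2. Against sham replicate 2 it was -0.078 and -0.027. Both hepatectomy arrays lay under both sham arrays in 35 of the 77 genes (45.5%) and over both in 2, where the shares of all genes were 23.2% and 28.1%. Without sham replicate 1 only 52 of 77 values were negative, with a median of -0.05, and without sham replicate 2 there were 70, with a median of -0.20. Without hepatectomy replicate 1, the array with the highest adrenal and fat marker sums, 62 were negative and the median was -0.10. The white fat sum of the remaining hepatectomy array (277) was also above both sham arrays (150 and 67). The part of the scaling, of brightness and of the adrenal and fat transcripts in the lean was not tested beyond these values. In whole tissue, fewer cells of a type and less RNA per cell cannot be told apart.

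**Figure D3:**
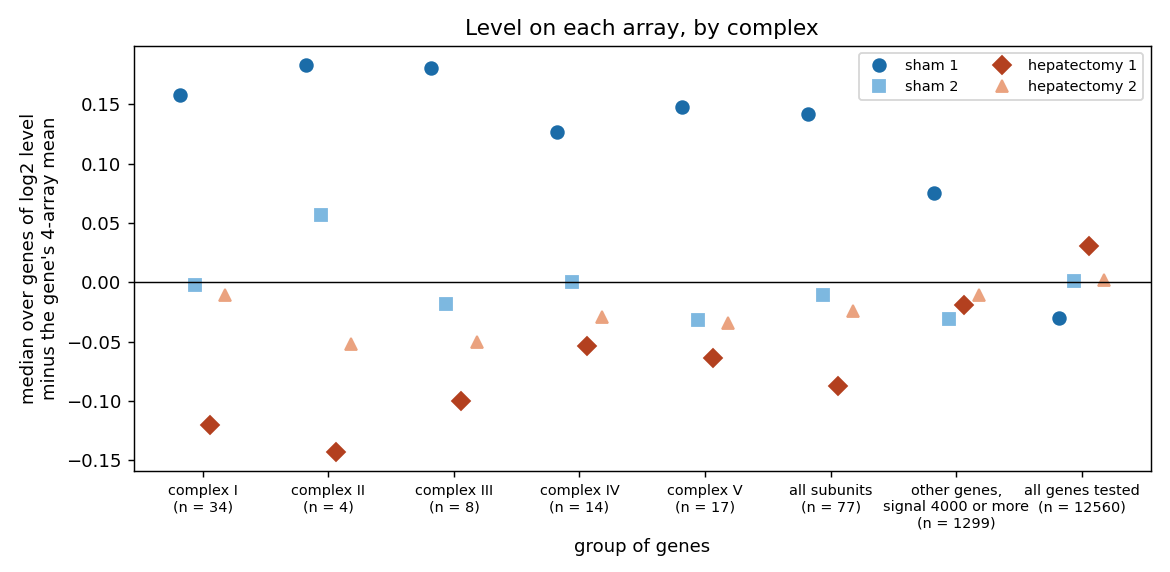
For each complex, all subunits, other bright genes and all genes tested (x axis, number of genes in brackets), the median over genes of the log2 level on 1 array minus the gene's mean over the 4 arrays (y axis). Sham replicate 1 is the highest array and hepatectomy replicate 1 the lowest in every complex, and only in complex II does sham replicate 2 (0.057) stand clear of hepatectomy replicate 2 (-0.052) by over 0.1.

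Complex II was the complex in which every gene had non-overlapping groups. It holds the flavoprotein Sdha, the iron-sulfur protein Sdhb and the membrane anchors Sdhc and Sdhd, and it also works in the tricarboxylic acid cycle. The median log2 fold change of the 4 genes was -0.193, and none was called. Over all genes tested 23.2% had groups apart downwards, and over other bright genes 30.3%. Sdhb had signals of 7828 and 6683 in sham and 4933 and 5901 in hepatectomy liver. Both hepatectomy values lie under both sham values, and the log2 fold change was -0.42 ± 0.14 (SE; unadjusted p = 0.017, limma adjusted p = 0.177). Its 95% interval ran from -0.75 to -0.10. Sdha, which binds FAD and oxidises succinate, read 10236 and 9040 against 8095 and 8509 (-0.21 ± 0.11, limma adjusted p = 0.41). Sdhd read 8252 and 8863 against 7289 and 7879, the only one of the 4 with sham replicate 2 above replicate 1. Sdhc read 5356 and 4748 against 4335 and 4648. In each of the 4 genes the gap between the groups was smaller than the SD of its sham arrays (810 for Sdhb, 846 for Sdha, 430 for Sdhc and 432 for Sdhd). Without sham replicate 1 the median of the complex was -0.17, and without hepatectomy replicate 1 it was -0.15.

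**Figure D4:**
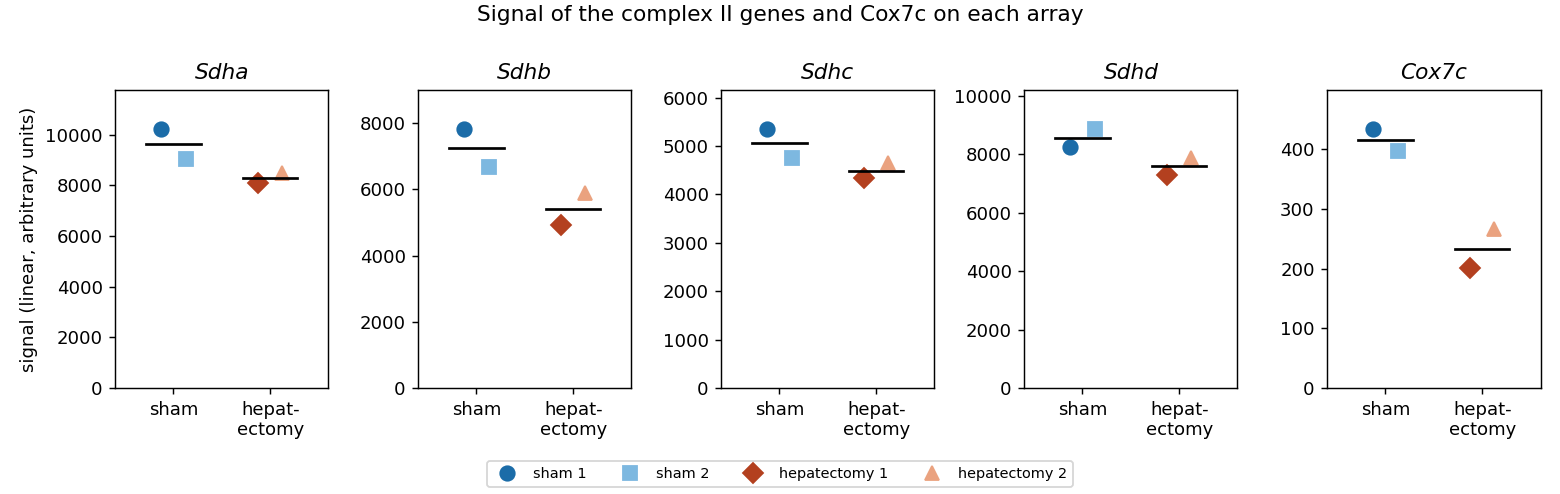
Signal (linear scale, y axis from 0) of Sdha, Sdhb, Sdhc, Sdhd and Cox7c on the 2 sham and 2 hepatectomy arrays, with the group mean as a line. In all 5 genes both hepatectomy arrays sit under both sham arrays, by the widest margin relative to the signal in Cox7c and by the narrowest in Sdhc.

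The probe sets of Sdha differed in size of change. Its 2 bright probe sets gave -0.21 and -0.18, whereas a dim one gave 104 and 112 in sham against 48.0 and 45.6 in hepatectomy liver, a log2 fold change of -1.07 ± 0.32 (SE; limma adjusted p = 0.13). The remaining one was on all 4 arrays under 20.4, the highest signal among 27 bacterial control probe sets (a limit chosen after the data were seen), and was not tested. What part of the gene the dim probe sets match was not analysed here.

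In complex I, 29 of 34 genes were negative, and the median was -0.114 (-0.05 without sham replicate 1, -0.21 without sham replicate 2). Both hepatectomy arrays lay under both sham arrays in 15 (44.1%, against 23.2% of all genes tested and 30.3% of other bright genes). Ndufa6, an accessory subunit of the LYR protein family, had signals of 5044 and 4480 in sham and 3192 and 4022 in hepatectomy liver. Its groups did not overlap, and its log2 fold change was -0.41 ± 0.15 (SE; limma adjusted p = 0.234). Ndufb9, another LYR protein, read 9912 and 8740 against 7544 and 7712 (-0.29 ± 0.11, limma adjusted p = 0.258). Ndufa5, an accessory subunit of the peripheral arm, read 7899 and 7283 against 6079 and 6569 (-0.26 ± 0.12, limma adjusted p = 0.311). These 3 had the smallest p of the complex, and in all of them the 2 hepatectomy values lay under the 2 sham values.

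The tested core subunits of complex I, the conserved part that carries the redox centres, lay between -0.22 and -0.08, and the groups were apart downwards in 3 of 6. Ndufs1, the largest iron-sulfur subunit, read 5009 and 4666 against 4004 and 4314 (-0.22 ± 0.13, limma adjusted p = 0.449), with groups apart. Ndufv1, which binds FMN and NADH, read 7083 and 6429 against 5808 and 6586 (-0.13 ± 0.13, limma adjusted p = 0.694), with overlapping groups. Of the others, named after their values were seen, Ndufs3 (12055 and 10240 against 9618 and 9546) and Ndufs7 (9399 and 8416 against 7350 and 8021) were each at -0.21 ± 0.12 with groups apart, and Ndufs8 and Ndufv2 overlapped. The other probe set of Ndufs7 gave -0.37 ± 0.14 (SE; unadjusted p = 0.0317, limma adjusted p = 0.244). Other bright probe sets had groups apart downwards for Ndufv1 (-0.21), Ndufv2 (-0.21 and -0.25) and Ndufs8 (-0.12). Further bright ones of Ndufv1 (-0.21) and Ndufs8 (-0.04, -0.03 and -0.10) overlapped. The count of 3 of 6 therefore depends on the probe set that stands for each gene. The highest value of the complex was that of Ndufb1, whose signals were low and scattered: 76.9 and 128 in sham, 142 and 121 in hepatectomy liver (0.37 ± 0.33). Ndufa8 and Ndufa4l2 were the 2 subunit genes with both hepatectomy arrays above both sham arrays, Ndufa8 (named after its values were seen) with 4544 and 4870 against 4511 and 4276. Ndufa4l2, a relative of Ndufa4 that is induced by hypoxia in other cells, read 145 and 165 against 128 and 143 (0.18 ± 0.27). Ndufa4 itself read 10506 and 8544 against 8644 and 9170, with overlapping groups (-0.09 ± 0.13). The 20 complex I genes not named one by one here had signals between 3348 and 13754 and log2 fold changes from -0.27 (Ndufb3) to 0.05 (Ndufc1), with groups apart downwards in 8 and a smallest limma adjusted p of 0.33.

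In complex III all 8 genes were negative, and the median was -0.155. The groups were apart downwards in 5 (62.5%, against 23.2% of all genes tested and 30.3% of other bright genes). Uqcrc1, a core protein of the matrix side, read 6194 and 5396 in sham against 4889 and 4776 in hepatectomy liver, without overlap (-0.26 ± 0.13 SE, limma adjusted p = 0.362). Uqcr11, a small subunit, read 6868 and 5632 against 4833 and 5578 (-0.26 ± 0.14, limma adjusted p = 0.427). For both genes the gap between the groups was smaller than the SD of the sham arrays (564 for Uqcrc1 and 874 for Uqcr11). Uqcr10, another small subunit, read 7353 and 5459 against 5681 and 4891, with overlapping groups (-0.26 ± 0.17). Uqcrfs1, the Rieske iron-sulfur protein that passes electrons towards cytochrome c, read 6905 and 6828 against 5740 and 6670 (-0.15 ± 0.12). Uqcrh, the hinge protein beside cytochrome c1, was the closest to 0 at -0.04 ± 0.12. The 3 others lay between -0.16 (Uqcrc2) and -0.12 (Uqcrq). The median of the complex was -0.06 without sham replicate 1 and -0.25 without sham replicate 2.

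Complex IV had the widest range, from -0.82 to 0.54, with a median of -0.107, 12 of 14 genes negative and 3 with groups apart. That share (21.4%) was near the 23.2% of all genes tested and under the 30.3% of other bright genes. The median was -0.07 without hepatectomy replicate 1 and -0.16 without sham replicate 2. Its catalytic core is encoded by mitochondrial DNA, and the nuclear genes supply the other subunits, several of them as tissue forms. The lowest value was that of Cox7c, a small membrane subunit present in all tissues: 434 and 396 in sham against 201 and 266 in hepatectomy liver. Its groups did not overlap, and its log2 fold change was -0.82 ± 0.24 (SE; unadjusted p = 0.00987, limma adjusted p = 0.133; 95% interval -1.38 to -0.26). It was called without hepatectomy replicate 2 (-1.01, limma adjusted p = 0.0462) and not without any other array; in that fit the hepatectomy group is 1 array, assumed to vary like the sham arrays, which alone give the spread. The probe set of Cox7c carries the maker's suffix for probes shared by several transcripts. The other probe set of Cox7c, at signals from 24.5 to 46.0, gave -0.40 ± 0.41. Cox4i1, the largest nuclear-encoded subunit and the form of most tissues, read 9493 and 9033 against 8652 and 8559 (-0.11 ± 0.11), with groups apart. Cox5a read 12390 and 10887 against 10706 and 11152 (-0.09 ± 0.11), with overlap. Its other probe sets, of like brightness, had groups apart. They read 10502 and 10844 against 9790 and 9286 (-0.16), and 11708 and 11860 against 10658 and 10320 (-0.17). Cox5b and Cox6c gave -0.11 and -0.12, with overlap. The supercomplex factor Cox7a2l (named after its values were seen) read 3903 and 4089 in sham, 2722 in hepatectomy replicate 1 and 4964 in replicate 2, the highest and the lowest value both being in the hepatectomy group.

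Among the forms of complex IV subunits used in liver, Cox6a1 read 12455 and 12101 against 12463 and 11950 (-0.01 ± 0.10), and Cox6b1 read 13522 and 11992 against 11758 and 12320 (-0.08 ± 0.11). Cox7a2 gave -0.05 ± 0.11 and Cox8a -0.12 ± 0.14, both with overlapping groups. Another bright probe set of Cox8a read 3574 and 3336 against 2770 and 3056 (-0.25 ± 0.14), with groups apart. The forms known from heart, skeletal muscle and brown fat were dim. Cox6a2 read 46.4 and 48.3 in sham, 67.9 in hepatectomy replicate 1 and 5.44 in replicate 2, the last under the bacterial control level of 20.4. Cox8b read 39.2 and 20.6 in sham, 87.2 in hepatectomy replicate 1 and 18.7 in replicate 2. For both genes the hepatectomy group held the highest and the lowest array. The highest was the one with the highest adrenal and fat marker sums. On it the brown fat markers Ucp1 (213) and Cidea (102) also stood above the 3 other arrays (at most 25.4 and 2.14). Of the 2 other brown fat markers, Ppargc1a was highest on that array (995, against 426 to 584), while Elovl3, the brightest, read 1513 there, within the 1261 to 1871 of the others. Their part in these values was not tested. Of 8 muscle markers 4 were under the control level on all arrays, and the 8 summed to 84 to 141. Cox6a2 was called lower without hepatectomy replicate 1 (-2.00, limma adjusted p = 0.0396) and had the opposite sign without replicate 2 (0.45). In both fits the hepatectomy group is a lone array, assumed to vary like the sham arrays, and in the first that array is the one under the control level. Cox7a1, another muscle form, read 140 and 164 against 130 and 94.8 (-0.42 ± 0.30, limma adjusted p = 0.545), with groups apart. The testis form Cox6b2 read 52.3 and 158 against 139 and 137 (0.54 ± 0.46), and the sham arrays lay on either side of the hepatectomy arrays. Cox4i2, the form of lung and of hypoxic cells, was between 2.93 and 6.28 and thus under the control level on every array. The testis form Cox7b2 was also under it on every array, and Cox8c was too dim to be tested.

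Complex V was the most even, with 16 of 17 genes negative, 8 with groups apart, a median of -0.116 and values between -0.20 and 0.00. The share with groups apart was 47.1%, against 23.2% of all genes tested and 30.3% of other bright genes. The 95% interval lay within 1.5-fold either way for all 17. In the catalytic head, Atp5a1 (subunit alpha) read 14200 and 12806 in sham against 12259 and 12114 in hepatectomy liver, without overlap (-0.15 ± 0.10 SE, limma adjusted p = 0.544). Atp5b (subunit beta, which holds the catalytic sites) read 12251 and 10081 against 10830 and 10572, with both hepatectomy arrays between the sham arrays (-0.05 ± 0.12). The 3 genes Atp5g1, Atp5g2 and Atp5g3 encode the same mature ring subunit c. Atp5g1 had the lowest value of the complex, with 8682 and 7903 against 6840 and 7646 (-0.20 ± 0.12, limma adjusted p = 0.472) and groups apart, while Atp5g2 read 4030 and 3533 against 3730 and 3819 (0.00 ± 0.13), and Atp5g3 gave -0.12 ± 0.12 (named after its values were seen). Atp5k, a subunit of the membrane part involved in dimer formation, read 8890 and 7747 against 7253 and 7553 (-0.16 ± 0.12), with groups apart. The 11 other genes of the complex lay between -0.14 (Atp5j2) and 0.00, 5 of them with groups apart. In all 17 genes sham replicate 1 was the highest array, and the median was -0.03 without it and -0.20 without sham replicate 2.

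Setting the complexes side by side, the medians ran from -0.107 (complex IV) to -0.193 (complex II). Differences between complexes were not tested. Both hepatectomy arrays lay under both sham arrays in 100% of complex II (4 genes), 62.5% of III and 47.1% of V. The shares were 44.1% in I and 21.4% in IV. Over all genes tested the share was 23.2%, near that of complex IV, and over other genes with a mean signal of 4000 or more it was 30.3%.

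Probe sets of the same gene mostly gave the same sign. Of 46 genes with several tested probe sets, all were negative in 41, all positive in 1 and mixed in 4. Since 135 of the 148 tested probe sets were negative, these counts say little about agreement within a gene. None of the 148 tested probe sets was called. A dim probe set of Ndufb8, an accessory subunit of complex I, gave 417 and 363 against 235 and 219 (-0.76 ± 0.23, limma adjusted p = 0.14), where the bright one gave 6332 and 5652 against 4867 and 5557 (-0.20 ± 0.13). The dim probe sets of Sdha and Ndufb8 and the probe set of Cox7c, all under 500 units of signal, had the 3 smallest p of the 148.

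The other genes of the mitochondrial energy system likewise held no called gene. Of all genes tested 3.57% were called higher and 1.09% lower, shares at which lists this short may hold none. None of 17 assembly factors of complex I, 4 of complex II, 5 of complex III, 20 of complex IV and 5 of complex V was called, with medians of -0.174, -0.137, -0.264, -0.061 and -0.098. Cox19, a copper chaperone factor of complex IV, read 2726 and 2556 in sham against 3348 and 3878 in hepatectomy liver (0.45 ± 0.14, limma adjusted p = 0.159), and Cox16, another factor of complex IV, read 1786 and 1358 against 808 and 1223 (-0.64 ± 0.24, limma adjusted p = 0.227). Dmac2, a factor of complex I, read 1393 and 1655 against 724 and 1255 (-0.67 ± 0.26, limma adjusted p = 0.253). Ndufaf4, also of complex I, read 2984 and 3118 against 1693 and 2740 (-0.50 ± 0.22, limma adjusted p = 0.31). Among 20 genes of electron carriers and exchange the median was -0.039. Slc25a4, the ADP/ATP carrier of heart and muscle, read 619 and 825 against 1457 and 1062 (0.79 ± 0.23, limma adjusted p = 0.122), without overlap. Its highest value was on hepatectomy replicate 1, the array with the highest adrenal and fat marker sums. The part of those transcripts in it was not tested. Coq5, a methyltransferase of ubiquinone synthesis, read 1316 and 1210 against 907 and 919 (-0.46 ± 0.17, limma adjusted p = 0.216). Pdss2, also of ubiquinone synthesis, stood the other way with 2767 and 2566 against 3170 and 3698 (0.36 ± 0.14, limma adjusted p = 0.265). Of 13 genes of the tricarboxylic acid cycle 10 were negative and the median was -0.093. Ogdh, the oxoglutarate dehydrogenase, read 3005 and 3203 against 2525 and 2262 (-0.38 ± 0.14, limma adjusted p = 0.234), and Fh1, the fumarase that acts after succinate dehydrogenase, read 10532 and 8927 against 11888 and 11657 (0.28 ± 0.12, limma adjusted p = 0.278).

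For the making of mitochondria, the 76 genes of the mitochondrial ribosome had a median of -0.016, with 43 negative and 33 positive. The 15 genes of mitochondrial genome expression had a median of -0.031. In that list Mterf3, a factor that lowers mitochondrial transcription and takes part in ribosome assembly, read 1799 and 1909 against 1264 and 1121 (-0.63 ± 0.16, limma adjusted p = 0.0841). Polg2, the accessory subunit of the mitochondrial DNA polymerase, read 1044 and 860 against 434 and 626 (-0.85 ± 0.23, limma adjusted p = 0.107). Tfb1m, which methylates the small ribosomal RNA of mitochondria, stood the other way with 580 and 485 against 761 and 940 (0.66 ± 0.21, limma adjusted p = 0.154). Of 9 regulators, the coactivator Ppargc1b came closest to the threshold, with 389 and 436 in sham against 153 and 213 in hepatectomy liver (-1.15 ± 0.26, limma adjusted p = 0.0551). Pprc1, a coactivator of the same family that responds to growth signals, stood the other way with 366 and 367 against 598 and 665 (0.77 ± 0.20, limma adjusted p = 0.0946). Gabpb1, the beta subunit of the ETS factor GABP, read 432 and 436 against 662 and 683 (0.62 ± 0.19, limma adjusted p = 0.151). In these 3 regulators the groups lay well apart relative to the distance between arrays of a group. Gabpa, the alpha subunit of GABP (named after its values were seen), leaned the other way from Gabpb1. It read 1499 and 1230 against 1053 and 1202 (-0.27 ± 0.18, limma adjusted p = 0.525). None of the 13 genes of mitochondrial DNA was matched by its mouse symbol; 1 probe set was annotated to ND5, a complex I subunit encoded there, and read 13708 and 14212 against 14189 and 12132 (-0.09 ± 0.11).

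Promoters were looked at because nuclear subunit genes are known to share binding motifs of NRF1, of ETS factors such as GABP, of the receptor ERRalpha and of YY1. RefSeq windows of 300 bases on build GRCm38.p6, from 250 bases before to 50 after the start, matched 66 of the 81 genes. The NRF1 core GCATGCGC was found, on either strand, in 9 of the 66 (13.6%), against 5.76% of 10135 tested genes and 3.05% of all 27025 genes of the table. The ETS motif CCGGAAGT was in 5 (7.58%, against 8.66% and 4.31%), the ERRalpha motif TCAAGGTCA in 2 (3.03%, against 0.365% and 0.466%) and the YY1 motif AAGATGGCG in 6 (9.09%, against 3.41% and 1.64%). Different motifs do not overlap in the windows shown. These are exact matches of letters, not binding sites. The windows below belong to genes among the 3 smallest p of complexes I, II and III that hold a match, and capitals mark the matches. Ndufa6 (chr15:82354242-82354541, minus strand) and Sdhb (chr4:140961021-140961320, plus strand) each hold the NRF1 core. Sdhd (chr9:50603800-50604099, minus strand) holds the ERRalpha motif on the opposite strand near the end of the window. Uqcrc1 (chr9:108936398-108936697, plus strand) holds the NRF1 core on both strands, overlapping, and Uqcr11 (chr10:80406772-80407071, minus strand) the ETS motif and the NRF1 core.
Ndufa6: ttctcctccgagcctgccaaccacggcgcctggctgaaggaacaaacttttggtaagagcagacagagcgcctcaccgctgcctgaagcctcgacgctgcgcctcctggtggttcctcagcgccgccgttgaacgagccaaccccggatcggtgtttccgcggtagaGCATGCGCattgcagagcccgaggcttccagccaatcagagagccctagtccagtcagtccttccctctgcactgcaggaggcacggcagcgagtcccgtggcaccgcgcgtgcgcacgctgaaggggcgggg
Sdhb: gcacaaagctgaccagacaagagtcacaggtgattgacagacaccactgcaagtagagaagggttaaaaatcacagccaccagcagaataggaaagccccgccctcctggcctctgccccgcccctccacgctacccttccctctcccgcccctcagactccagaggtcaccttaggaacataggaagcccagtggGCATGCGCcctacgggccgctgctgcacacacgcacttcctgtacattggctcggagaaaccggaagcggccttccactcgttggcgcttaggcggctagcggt
Sdhd: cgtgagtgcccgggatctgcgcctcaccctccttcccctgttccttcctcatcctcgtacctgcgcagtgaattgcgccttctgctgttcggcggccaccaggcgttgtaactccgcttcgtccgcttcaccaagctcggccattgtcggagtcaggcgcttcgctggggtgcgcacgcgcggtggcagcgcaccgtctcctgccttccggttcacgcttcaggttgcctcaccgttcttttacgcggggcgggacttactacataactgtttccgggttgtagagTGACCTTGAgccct
Uqcrc1: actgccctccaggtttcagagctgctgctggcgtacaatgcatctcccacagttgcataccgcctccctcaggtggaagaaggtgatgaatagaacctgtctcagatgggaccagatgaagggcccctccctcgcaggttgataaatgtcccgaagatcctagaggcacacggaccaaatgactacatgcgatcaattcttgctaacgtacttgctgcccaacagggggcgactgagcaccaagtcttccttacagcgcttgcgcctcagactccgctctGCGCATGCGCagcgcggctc
Uqcr11: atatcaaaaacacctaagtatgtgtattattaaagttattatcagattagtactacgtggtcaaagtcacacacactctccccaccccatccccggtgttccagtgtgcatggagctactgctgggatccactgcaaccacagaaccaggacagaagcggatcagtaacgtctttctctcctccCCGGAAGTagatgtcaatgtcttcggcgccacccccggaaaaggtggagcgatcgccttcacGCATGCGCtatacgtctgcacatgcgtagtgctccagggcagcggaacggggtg
The promoter of Sdha held none of the 4 motifs, nor did that of Cox7c. The genes with the NRF1 core included both low and near-zero values: Sdhb (-0.42), Ndufa6 (-0.41), Uqcrc1 and Uqcr11 (both -0.26), Atp5k (-0.16) and Atp5l (-0.12) on one side, Cox6a1 (-0.01), Atp5g2 (0.00) and Ndufa8 (0.10) on the other.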

How the data were processed

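Signals of 4 arrays (2 sham, 2 hepatectomy, from the sample titles) were used as deposited: intensity on a linear scale, 1 per probe set, made by the authors with GCOS 1.4 per the submitters' processing notes (settings not stated there). Detection calls and scan dates were not analysed here, so no batch was tested. The trimmed mean (2% at each end) is 500 on every array, and this scaling was kept. Of 45101 probe sets, 64 controls were left out. Names came from the platform annotation: 34945 probe sets had 1 symbol, 932 several (not used) and 9160 none.

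Values were log2(signal + 8.57), the offset being the 20th percentile of all signals. Probe sets with a mean under the 40th percentile (5.09) were left out, leaving 27022. Groups were compared with lmFit and eBayes (trend) of limma 3.58.1 in R 4.3.3, two-sided, with 2 residual and 6.02 prior degrees of freedom, Benjamini-Hochberg adjustment over all probe sets and a threshold of 0.05. The code was tested on simulated data. A gene's probe set with the highest mean stands for it. Complexes and lists are described by counts and medians, without a test. Named genes are, per complex, the 3 smallest p, the highest and the lowest fold change, plus core subunits and tissue isoforms, and up to 3 genes with the smallest p of each related list; others are marked, and 1 gene of the rule is not reported here. The members and lists were chosen with earlier results of these data known. Alternative settings were another offset, filter, scaling, variance model, choice of probe sets, replicate block and each array left out. The number of arrays limits the precision.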

Additional observations from a re-analysis of the deposited data

How the results depend on the processing

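The count of called subunit genes was 0 in each direction with a smaller or larger offset, no filter, median centring, quantile normalization, no trend, robust eBayes, averaging over the probe sets of a gene and leaving out probe sets shared by several transcripts, and between 0 and 1 for lower genes when 1 array was left out (Cox6a2 without hepatectomy replicate 1, Cox7c without replicate 2). With the replicate number as a replicate block it was also 0, and the smallest adjusted p was 0.085 (Cox7c), while the genes called in the whole table went from 586 to 1189. That number was 218 with no filter and 173 with no trend, and 232 to 1250 when 1 array was left out (232 without sham replicate 1, 1250 without hepatectomy replicate 2). The titles do not say that a number marks a shared animal or day, and the replicate differences of the 2 groups correlated at 0.102 over 27022 probe sets. The number of subunit genes at an unadjusted p under 0.05 ran from 0 without sham replicate 1 to 13 without sham replicate 2. Median centring moved the median of all genes from 0.02 to -0.06, the median of complex II to -0.28 and that of complex IV to -0.19. The subunit median minus that of all genes was -0.14 in the main setting and with median centring. With quantile normalization it was -0.08, with 66 of 77 subunit genes negative and a subunit median of -0.09. The size of the lean thus depended on the normalization. Averaging over probe sets gave -0.31 for complex II, and leaving out 1 array gave -0.28 to -0.15 for it. Of the values of named genes, 16 had the opposite sign in a setting, none of them called. Atp5g2 was -0.09 after median centring, Cox6a1 was 0.03 after quantile normalization and Cox7a2 was 0.01 once shared probe sets were left out; the cause was not tested. With 1 array left out, the values ran from -0.20 to 0.09 for Atp5b, -0.09 to 0.10 for Atp5g2, -0.04 to 0.02 for Cox6a1, -2.00 to 0.45 for Cox6a2, -0.17 to 0.01 for Cox6b1, -0.19 to 1.27 for Cox6b2, -0.15 to 0.06 for Cox7a2, -0.45 to 1.36 for Cox8b, -0.24 to 0.06 for Ndufa4 and -0.15 to 0.07 for Uqcrh.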
